A study of Mus musculus with 7 samples.

Results

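The histone deacetylases counted here are the 10 genes Hdac1 to Hdac9 and Hdac11, chosen by symbol from the 23413 gene symbols in the count files, and all 10 passed the filter on low counts that left 15881 genes for testing. RNA was sequenced from the frozen brain cortex of 7 APP/PS1 mice, a model of Alzheimer's disease in which every mouse of both groups carries the transgenes APPswe and PSEN1dE9. The control diet group (CD, called SD in the sample labels, n = 4) ate 74% of its energy as carbohydrate, 10% as protein and 16% as fat, and the ketogenic diet group (KD, n = 3) ate less than 0.5% as carbohydrate, 10% as protein and 90% as fat. The mice were started on the diets at 6 months of age and were singly housed, and tissue was taken at 13 months, after 7 months of feeding. Each library is 1 mouse, and no wild-type mice are among these libraries, so the values describe diet within the APP/PS1 genotype alone. Cortex is a mixture of cells, so fewer cells of a type cannot be told apart from less RNA in each cell.

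Histone deacetylases remove acetyl groups from lysines of histones and of other proteins, which closes chromatin and lowers transcription at the sites where they are recruited. Class I enzymes work in nuclear corepressor complexes, class IIa enzymes shuttle between nucleus and cytoplasm and hold back MEF2 transcription factors, the class IIb enzyme HDAC6 deacetylates tubulin in the cytoplasm, and HDAC11 is the sole class IV member. The ketone body beta-hydroxybutyrate (BHB), which rises on a ketogenic diet, is known as an inhibitor of class I enzymes. Inhibition acts on the protein, and the counts measure only the mRNA.

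With all 7 libraries in the fit, no histone deacetylase mRNA passed edgeR's test of the difference between the diets. Of the 10 genes, 7 were higher and 3 lower on KD, with log2 fold changes from -0.08 for Hdac5 to 0.34 for Hdac1 and a median of 0.07, against a median of -0.0033 over all tested genes. By edgeR's quasi-likelihood test 0 of the 10 reached the raw p of 0.01 that the study used as its threshold, which 0.321% of all tested genes reached. At a raw p under 0.05 the number was again 0 of 10, with 3.19% of all genes called, and 0% of all genes passed an adjusted p of 0.05. DESeq2 and limma-voom also called 0 of the 10 at a raw p under 0.05. Some fits on fewer libraries called 2 or 1 of the 10 at a raw p under 0.05. With the replicate number as a block on replicates 1 to 3, 2 were called (Hdac1 and Hdac9), as were 5.89% of all genes. Without CD replicate 4 it was 1 (Hdac1), with 2.73% of all genes called. It was also 1 without both CD replicate 4 and KD replicate 3 (Hdac1), without KD replicate 1 (Hdac7), and in 4 libraries with high Xist (Hdac9). For these last fits the share of all genes under 0.05 is not given here. An adjusted p under 0.05 was reached by 0 of the 10 in each of these fits. With all 7 libraries in edgeR's quasi-likelihood test, the smallest raw p was 0.0700, for Hdac7. Hdac7 was also the only member whose CPM did not overlap between the diets, or 10% of the members, where 4.11% of all genes did not overlap (2.05% higher and 2.07% lower on KD).

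**Figure D1:**
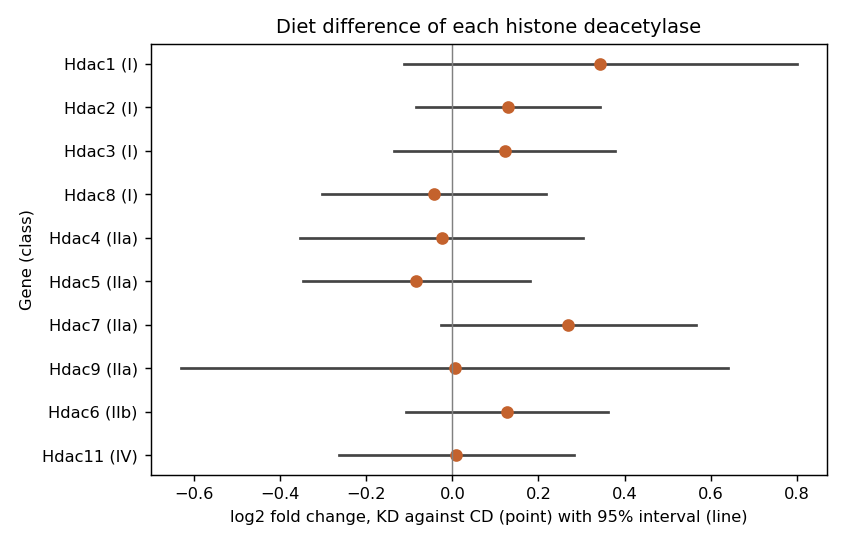
Log2 fold change of each histone deacetylase on KD against CD (point, x axis) with its 95% interval from edgeR (line), by gene and class (y axis). All 10 intervals include 0, and those of Hdac9 and Hdac1 are the widest.

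The intervals say how large a difference could still be present. For Hdac2, Hdac3, Hdac8, Hdac4, Hdac5, Hdac6 and Hdac11 the 95% intervals together ran from a fold of 0.782 to a fold of 1.30. Hdac7 reached up to 1.48-fold and Hdac1 up to 1.74-fold. Hdac9 was the least certain, from 0.646-fold to 1.56-fold.

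The class I genes are given first. Hdac2 and Hdac3 encode the catalytic subunits of the large corepressor complexes, HDAC2 in Sin3, NuRD and CoREST and HDAC3 in the NCoR complex. In CPM scaled by TMM, Hdac2 stood at 91.5, 101, 101 and 91.7 in CD replicates 1 to 4 and at 94.3, 105 and 117 in KD replicates 1 to 3. The KD values lay mostly above CD, but KD replicate 1 fell inside the CD range. The mean was 96.5 ± 5.60 CPM (SD, n = 4) on CD and 105 ± 11.2 CPM (SD, n = 3) on KD, a log2 fold change of 0.13 (standard error, SE, 0.09). Hdac3 stood at 81.6, 90.9, 97.3 and 90.5 CPM on CD and at 83.1, 98.7 and 112 CPM on KD. Again KD replicate 3 was the highest of the 7 libraries and KD replicate 1 lay near the bottom of the CD range. Its log2 fold change was 0.12 (SE 0.11).

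Hdac8, an X-linked class I enzyme that deacetylates the cohesin subunit SMC3, was the steadiest member. It had 13.6, 13.6, 13.1 and 16.1 CPM on CD and 13.8, 13.3 and 14.0 CPM on KD. Apart from CD replicate 4 all libraries lay within 1 CPM of each other, and the log2 fold change was -0.04 (SE 0.11).

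Hdac1 encodes the close paralog of HDAC2 and shares its complexes, yet its count was far lower. It had 212, 185, 189 and 351 counts in the CD libraries and 178, 290 and 220 in the KD libraries, or 6.06, 6.33, 5.77 and 9.24 CPM on CD and 7.68, 8.68 and 9.73 CPM on KD. The 3 KD values lay above CD replicates 1 to 3, and CD replicate 4 fell among them. The means were 6.85 ± 1.61 CPM (SD, n = 4) on CD and 8.70 ± 1.02 CPM (SD, n = 3) on KD, a log2 fold change of 0.34 (SE 0.20). The raw p was 0.121 and the adjusted p 0.979 in edgeR. Without CD replicate 4 the log2 fold change was 0.52 with a raw p of 0.0105 (adjusted p = 0.97), in a fit where 2.73% of all genes had a raw p under 0.05. The fit with the replicate number as a block also lacks CD replicate 4, which has no KD library of its number, and gave 0.52 with a raw p of 0.0178 (adjusted p = 0.83), where 5.89% of all genes had a raw p under 0.05. The block itself therefore added little to the value without CD replicate 4.

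Part of the Hdac1 transcript also occurs in other annotated genes, so its count may rest on the remaining part. Hdac1 lies on chromosome 4 of mm10 from 129516104 to 129542713, and the processed pseudogene Gm10093, a retrocopy of its coding sequence on chromosome 17 from 78491582 to 78493025, is 99.4% identical to it over 1444 aligned bases, with 9 differences. The window below holds 6 of these 9, and is shown because reads over most of the rest cannot be told apart. It covers coding bases 363 to 482 in exon 5 of 14 (chr4:129522975-129523094, minus strand) and its copy (chr17:78491944-78492063, plus strand), written 5′ to 3′ in the sense of the transcript, with the differing bases in capitals.
Hdac1: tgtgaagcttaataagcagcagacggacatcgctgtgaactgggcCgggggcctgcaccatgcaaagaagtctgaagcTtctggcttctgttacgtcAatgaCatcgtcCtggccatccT
Gm10093: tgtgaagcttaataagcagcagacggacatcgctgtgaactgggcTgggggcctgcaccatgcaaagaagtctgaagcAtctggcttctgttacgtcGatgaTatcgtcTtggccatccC
Counted from the first base of the window, the substitutions from Hdac1 to the copy are C46T, T79A, A98G, C103T, C110T and T120C. Of the 50-base stretches of the Hdac1 transcript, the length of 1 read, 58.7% also occur in annotated transcripts of Gm10093 or of 2 further genes, and of those within the coding sequence 83.5% do. For read pairs 200 bases apart at their outer ends, 43.1% have both reads in a shared gene. STAR's gene counting leaves out reads that map equally well to several places, and how many Hdac1 reads were left out was not tested. For the other class I genes, and for Hdac6, Hdac7 and Hdac9, the share of such stretches was 0%. The search took 1 transcript of each gene, which for some covers only part of the exons. It covered 3204 bases for Hdac9 and 2005 for Hdac2, whose exons together hold 10687 and 4232 bases. For Hdac11 it was 22.8%, for Hdac4 1.08% and for Hdac5 0.853%. These stretches are shared with genes that overlap the member at its own locus. They are Gm44002 and Gm14573 for Hdac11, Gm26720 for Hdac4 and Mir8101 for Hdac5. Unlike Gm10093, they are not copies elsewhere to which a read could map equally well. Counting error alone was 7.5% at the lowest Hdac1 count.

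The class IIa genes encode signal-responsive repressors that neurons move out of the nucleus when calcium rises. Hdac4 had 43.4, 31.5, 38.3 and 30.8 CPM on CD and 35.1, 39.5 and 31.4 CPM on KD. The KD values sat inside the CD range, with a log2 fold change of -0.03 (SE 0.14). Hdac5 had 68.5, 61.2, 55.2 and 75.6 CPM on CD and 64.7, 61.7 and 57.95 CPM on KD, also inside the CD range, with a log2 fold change of -0.08 (SE 0.12).

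Hdac7, known for its role in endothelium and developing lymphocytes, was the least abundant class IIa gene. It had 8.09, 9.16, 8.92 and 8.58 CPM on CD and 9.28, 11.5 and 10.6 CPM on KD. Every KD library lay above every CD library, though KD replicate 1 exceeded CD replicate 2 by little. The log2 fold change was 0.27 (SE 0.13), with a raw p of 0.0700 and an adjusted p of 0.979 in edgeR. Without KD replicate 1 the raw p was 0.0411 at a log2 fold change of 0.35. The summed CPM of 5 endothelial markers ran from 125 to 181 on CD and from 130 to 161 on KD, inside the CD range. Of the 5, 0 had a raw p under 0.05 in edgeR and none was at 0 in a library. The part of endothelial content in the Hdac7 values was not tested.

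Hdac9, which also yields a MEF2-binding form without the catalytic part, was the most variable member. It had 49.2, 44.1, 74.1 and 106 CPM in CD replicates 1 to 4 and 70.1, 63.2 and 72.6 CPM in KD replicates 1 to 3. The CD libraries spanned more than a doubling, and the KD libraries lay in the middle of that span. The means were 68.3 ± 28.2 CPM (SD, n = 4) on CD and 68.6 ± 4.89 CPM (SD, n = 3) on KD, a log2 fold change of 0.01 (SE 0.28). Its coefficient of variation within the diets was 32.3%, higher than that of 79.9% of all tested genes, while the other members lay between 7.55% and 18.4% and the median gene at 14.6%.

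The libraries also differed in Xist, and its part in the spread of Hdac9 was not tested apart from diet. Xist, the X-inactivation RNA, stood at 250, 248, 530 and 327 CPM in CD replicates 1 and 2 and KD replicates 1 and 2, and at most at 3.08 CPM in CD replicates 3 and 4 and KD replicate 3. The Y-linked Ddx3y went the other way, with 301 to 333 CPM in the Xist-low libraries and at most 0.31 CPM in the others. The labels do not give the sex of the mice, but the study used males and females. By these RNAs the Xist-high libraries have the pattern of females and the Xist-low libraries that of males. Among the Xist-high libraries alone, a split made after Xist was seen, Hdac9 was higher on KD, with a log2 fold change of 0.52 (SE 0.11). The raw p was 0.00125 and the adjusted p 0.25 in edgeR, in a fit where 2.67% of all genes reached a raw p of 0.01. The same contrast, taken from the interaction model of all libraries described next, had a raw p of 0.0230 and an adjusted p of 0.835 in edgeR. In a model with diet, Xist status and their interaction, the log2 fold change was 0.51 in Xist-high and -0.31 in Xist-low libraries, and the interaction had a raw p of 0.0225 and an adjusted p of 0.555, so a difference between them was not shown. With the replicate number as a block and CD replicate 4 out of the fit, where numbers 1 and 2 are Xist-high and number 3 is Xist-low on both diets, the Hdac9 log2 fold change was 0.33 with a raw p of 0.0389 (adjusted p = 0.835). CD replicate 4, the highest in Hdac9, also stood apart in 6 olfactory bulb markers, with a summed 73.1 CPM against 5.09 to 18.3 in the other 6 libraries (CD 8.15 to 73.1, KD 5.09 to 18.3; 2 of 6 with a raw p under 0.05; Eomes at 0 in at least 1 library). Of all libraries, CD replicate 4 also had the highest summed CPM of meninges markers (236) and inhibitory neuron markers (898). It had the lowest of excitatory neuron markers (796) and microglia markers (320). In oligodendrocyte, astrocyte and choroid plexus markers it lay between the other libraries. The part of any of these marker sets in the Hdac9 value was not tested. Without CD replicate 4 the log2 fold change was 0.30, with a raw p of 0.164.

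**Figure D2:**
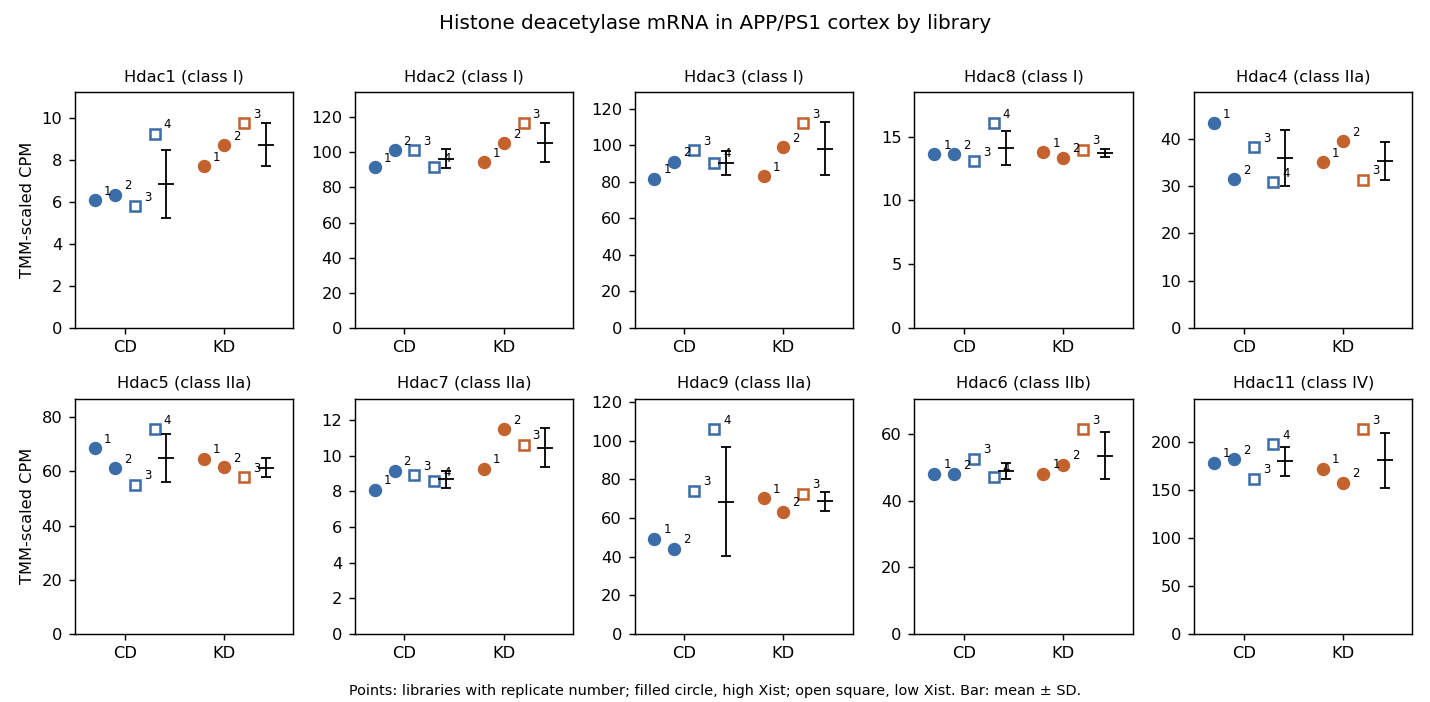
TMM-scaled CPM (y axis, starting at 0) of each histone deacetylase in the 4 CD and 3 KD libraries, numbered by replicate, with filled circles for libraries with a high Xist level, open squares for low Xist, and a bar for the mean ± SD of each diet. Hdac7 shows no overlap between the diets, Hdac9 ranges from 44.1 to 106 CPM on CD, and KD replicate 3 is the highest library for Hdac1, Hdac2, Hdac3, Hdac6 and Hdac11.

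Hdac6, the X-linked class IIb enzyme that deacetylates alpha-tubulin and HSP90, had 48.2, 48.1, 52.7 and 47.1 CPM on CD and 48.2, 50.9 and 61.5 CPM on KD. KD replicate 3 stood above the other 6 libraries, which lay within 6 CPM of each other. The log2 fold change was 0.13 (SE 0.10). It was -0.0012 when KD replicate 3 and CD replicate 4 were both left out, a choice made after their values were seen. As both Hdac6 and Hdac8 lie on the X chromosome, the fit was repeated with Xist as a covariate, which gave log2 fold changes of 0.13 for Hdac6 and -0.04 for Hdac8, with raw p of 0.152 and 0.769 and adjusted p of 0.803 and 0.967 in edgeR.

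Hdac11, the class IV gene, is described in neurons and in mature oligodendrocytes. It had 178, 182, 162 and 198 CPM on CD and 172, 158 and 214 CPM on KD. The lowest and the highest library were both on KD, and the log2 fold change was 0.01 (SE 0.12). The summed CPM of 9 oligodendrocyte markers was 4317, 3875, 1113 and 3600 on CD and 4236, 2195 and 1142 on KD, with 0 of the 9 at a raw p under 0.05 and none at 0. Hdac11 was low in CD replicate 3 and highest in KD replicate 3, the 2 libraries with the least oligodendrocyte RNA. It was lowest in KD replicate 2, the next lowest in that RNA. The part of oligodendrocyte content in the Hdac11 values was not tested. Opposite-strand genes (Gm14573 and Gm44002) overlap 26% of its exon bases, and the strand setting of the counting is not given in the sources used here, so some of its reads may belong to them.

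Levels were compared between genes as CPM per kilobase of exon, where exon length is the union of exons in GENCODE M21. Hdac11 was the most abundant at 68.1 ± 7.45 (SD over the 7 libraries), followed by Hdac3 at 46.0 ± 5.13, Hdac2 at 23.7 ± 2.12, Hdac6 at 12.3 ± 1.22 and Hdac5 at 11.3 ± 1.22. Lower down came Hdac8 at 7.20 ± 0.51, Hdac9 at 6.40 ± 1.89, Hdac4 at 4.41 ± 0.60, Hdac1 at 3.75 ± 0.79 and Hdac7 at 1.91 ± 0.24. The ranges over libraries did not overlap between Hdac11, Hdac3, Hdac2 and Hdac6 as neighbours, between Hdac5 and Hdac8, or between Hdac1 and Hdac7. They overlapped between Hdac6 and Hdac5 and between neighbours along the run from Hdac8 through Hdac9 and Hdac4 to Hdac1. The order of such neighbours is therefore not fixed. At full exon length the lowest Hdac8 library (6.77) still lay above the highest library of Hdac4 (5.35) and of Hdac1 (4.78). With the shared share of its sequence left out of its length, Hdac1 rose to 9.07 CPM per kilobase, between Hdac5 and Hdac8, and remained below Hdac2. Hdac11 treated in the same way stood at 88.2. Its shared stretches belong to the opposite-strand genes at its own locus, not to an annotated copy elsewhere.

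**Figure D3:**
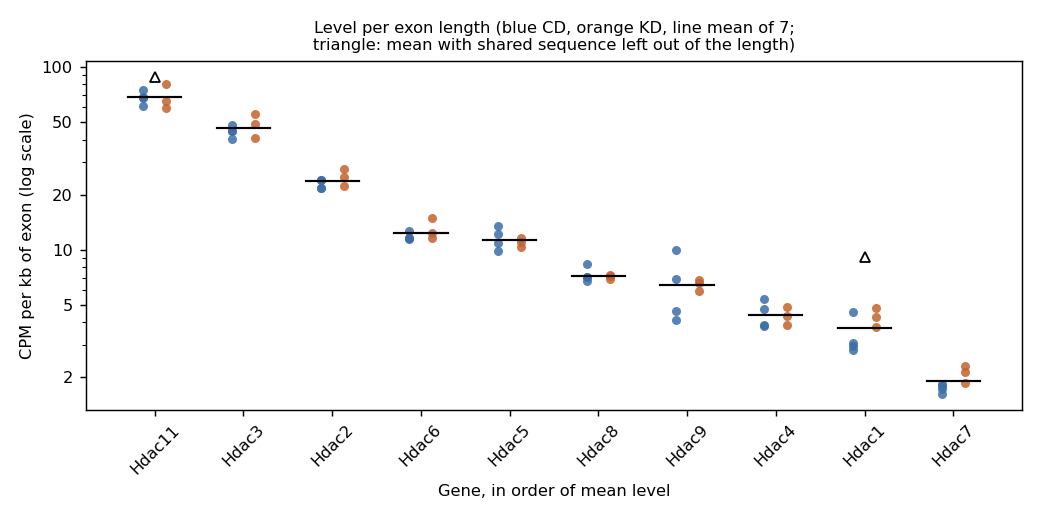
CPM per kilobase of exon (y axis, log scale) for each histone deacetylase in order of its mean, with CD libraries in blue, KD libraries in orange, and a line at the mean of the 7 libraries. Open triangles give the mean of Hdac1 (9.07) and Hdac11 (88.2) with sequence shared with other genes left out of the length.

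Summed per length, and with Hdac10 not among the members, class I genes made up 43.6% of the summed level of the 10 genes (40.8% to 46.9% over the libraries), Hdac11 36.7% (32.9% to 38.6%), class IIa genes 13.02% (10.8% to 14.9%) and Hdac6 6.65% (5.86% to 7.13%). With shared sequence left out of the lengths, Hdac11 made up 41.8% (37.7% to 43.9%) and class I 40.8% (38.2% to 44.4%). Hdac11 then stood above class I in 5 of the 7 libraries. This turn rests on shortening Hdac11 by stretches that it shares only with opposite-strand genes at its own locus. Whether reads there were left out of its count depends on the strand setting, which is not given. The order of Hdac11 and class I is therefore not settled. The class I total was 77.8 ± 4.17 CPM per kilobase (SD, n = 4) on CD and 84.5 ± 10.3 (SD, n = 3) on KD. The class IIa total was 24.2 ± 3.41 on CD and 23.8 ± 0.616 on KD. In neither class did the diets separate.

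The partners of the enzymes were read from lists of complex subunits, regulators and targets, 113 genes in all, of which 112 were tested and Mef2b was not. Of the 112, 54 were higher and 58 lower on KD, with a median log2 fold change of -0.0049. By edgeR's quasi-likelihood test 0 of them reached a raw p of 0.01 and 2 a raw p under 0.05, both lower on KD, and 1.52% of all genes were lower at that threshold. The CPM of the diets did not overlap for 3 of the 112 (Mta3, Rcor3 and Tuba1a), against 4.11% of all genes.

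**Figure D4:**
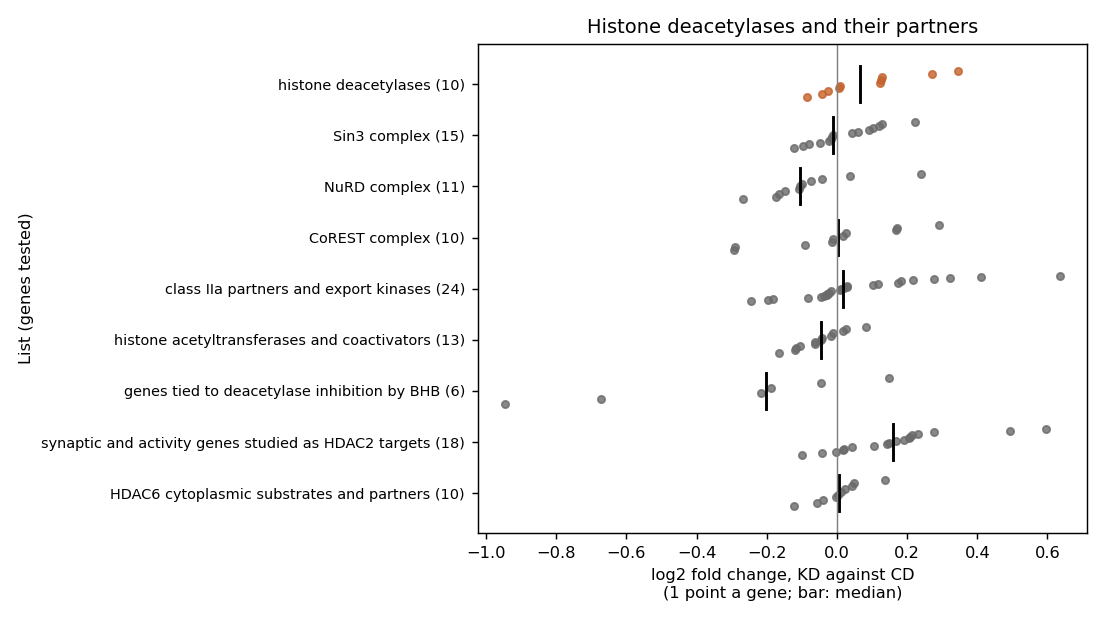
Log2 fold change on KD against CD (x axis) of each tested gene of the histone deacetylase family and of 8 partner lists (y axis, with the number of genes), with a bar at the median. Mt2 and Mt1, on the far left, are the 2 with a raw p under 0.05.

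The corepressor complexes that carry class I enzymes showed no gene at a raw p under 0.05. In the Sin3 complex 7 of 15 subunits were higher (median log2 fold change -0.01), with 0.09 for the scaffold Sin3a (SE 0.08) and 0.13 for Sin3b (SE 0.12). In NuRD, the complex that joins deacetylation to chromatin remodelling, 2 of 11 were higher, with a median of -0.10. Its remodelling ATPase Chd4 had a log2 fold change of 0.04 (SE 0.09) and the subunit Mta1 of -0.10 (SE 0.09). Mta3 was at 52.3, 50.3, 47.2 and 50.2 CPM on CD and at 43.2, 43.8 and 46.0 CPM on KD, a log2 fold change of -0.17 with a raw p of 0.0511. In CoREST 5 of 10 were higher (median 0.0026), with 0.17 for the scaffold Rcor1 (SE 0.11) and -0.01 for the demethylase Kdm1a (SE 0.07). In the NCoR complex, which activates HDAC3, the scaffold Ncor1 had a log2 fold change of 0.05 (SE 0.08).

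Among the MEF2 factors, 14-3-3 proteins and kinases that govern class IIa enzymes, 14 of 24 were higher, with a median of 0.02 and none at a raw p under 0.05. Mef2c, a MEF2 factor of excitatory neurons, had 1400, 1699, 1635 and 958 CPM on CD and 1575, 1771 and 1008 CPM on KD. It was lowest in CD replicate 4 and KD replicate 3 whatever the diet, with a log2 fold change of 0.03 (SE 0.24), and Mef2a differed by 0.01 (SE 0.08). The histone acetyltransferases, which oppose the deacetylases, were higher in 3 of 13 (median -0.05), with -0.04 for Crebbp (SE 0.09) and 0.03 for Ep300 (SE 0.10). Brd2, a reader of acetylated histones, had a log2 fold change of -0.08 (SE 0.11). Of the 10 HDAC6 substrates and partners 6 were higher (median 0.0072). The alpha-tubulin gene Tuba1a had 495, 513, 464 and 452 CPM on CD and 522, 523 and 541 CPM on KD, with a log2 fold change of 0.14 (SE 0.08) and a raw p of 0.115, and Hsp90aa1 differed by 0.01 (SE 0.09).

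Among the partner lists, that of genes tied to deacetylase inhibition by BHB held both genes with a raw p under 0.05. BHB is known to raise histone acetylation at Foxo3 and Mt2, and with it transcripts of oxidative stress resistance. Here 5 of 6 genes of that list were lower on KD, with a median log2 fold change of -0.20. The metallothionein gene Mt2, whose product binds zinc and copper, stood at 25.9, 28.0, 11.6 and 25.8 CPM on CD and at 10.6, 14.5 and 10.4 CPM on KD. The 3 KD libraries and CD replicate 3 formed the low values, and CD replicates 1, 2 and 4 lay well above them. The log2 fold change was -0.95 (SE 0.29, 95% interval -1.62 to -0.27), with a raw p of 0.0116 and an adjusted p of 0.979 in edgeR. Its neighbour Mt1 stood at 61.3, 66.3, 29.0 and 60.4 CPM on CD and at 34.6, 37.4 and 30.0 CPM on KD. The libraries that were low in Mt2 were low here too. The log2 fold change was -0.67 (SE 0.26), with a raw p of 0.0309 and an adjusted p of 0.979 in edgeR. At the study's threshold the call for Mt2 depended on the test, since its raw p was 0.00157 in DESeq2, 0.00284 in edgeR's exact test, 0.00270 in the likelihood-ratio test and 0.00938 with the replicate block, which leaves out CD replicate 4, but 0.0398 in limma-voom.

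Removing single libraries moved the values of both genes, and at a raw p under 0.05 it changed the call for Mt1 alone. Mt2 stayed under 0.05 in 7 of 7 removals by edgeR's quasi-likelihood test. Over the 6 removals of a library other than CD replicate 3, the raw p of Mt2 lay between 0.0125 and 0.0429 in edgeR, with adjusted values not under 0.05. For Mt1, 5 of the 7 removals brought the raw p above 0.05, up to 0.0952 without KD replicate 3, and only that of CD replicate 3 or KD replicate 2 did not, by edgeR's quasi-likelihood test with no adjusted p under 0.05. With CD replicate 4 and KD replicate 3 both left out the raw p was 0.0954 for Mt2 and 0.205 for Mt1 in the same test, adjusted values again not under 0.05. CD replicate 3 is the CD library with the lowest metallothionein level, so that its removal widens the difference by construction. Without CD replicate 3 the log2 fold change of Mt2 was -1.16 (SE 0.15) and that of Mt1 -0.88 (SE 0.11). Their raw p were 1.12e-04 and 5.61e-05 and their adjusted p 0.586 in edgeR, in a fit where 1.34% of all genes reached a raw p of 0.01. In the Xist-high libraries alone they were -1.09 and -0.82, with adjusted p of 0.184 and 0.0974 in edgeR. Taken from the model of all libraries with diet, Xist status and their interaction, that contrast had an adjusted p of 0.835 for both genes in edgeR. Metallothioneins are abundant in astrocytes, and the summed CPM of 6 astrocyte markers ran from 4753 to 5339 on CD and from 4238 to 6814 on KD, with 0 of the 6 at a raw p under 0.05 and none at 0. KD replicate 1, where Mt2 was low, had the highest astrocyte sum, 6814 CPM. KD replicate 3 and CD replicate 3, also low in Mt2, had the lowest sums, 4238 and 4753 CPM. KD replicate 2 lay between, at 5440 CPM. The part of astrocyte content in the metallothionein values was not tested. CD replicate 3 was also the CD library with the fewest oligodendrocyte transcripts, whose part in its metallothionein values was not tested.

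**Figure D5:**
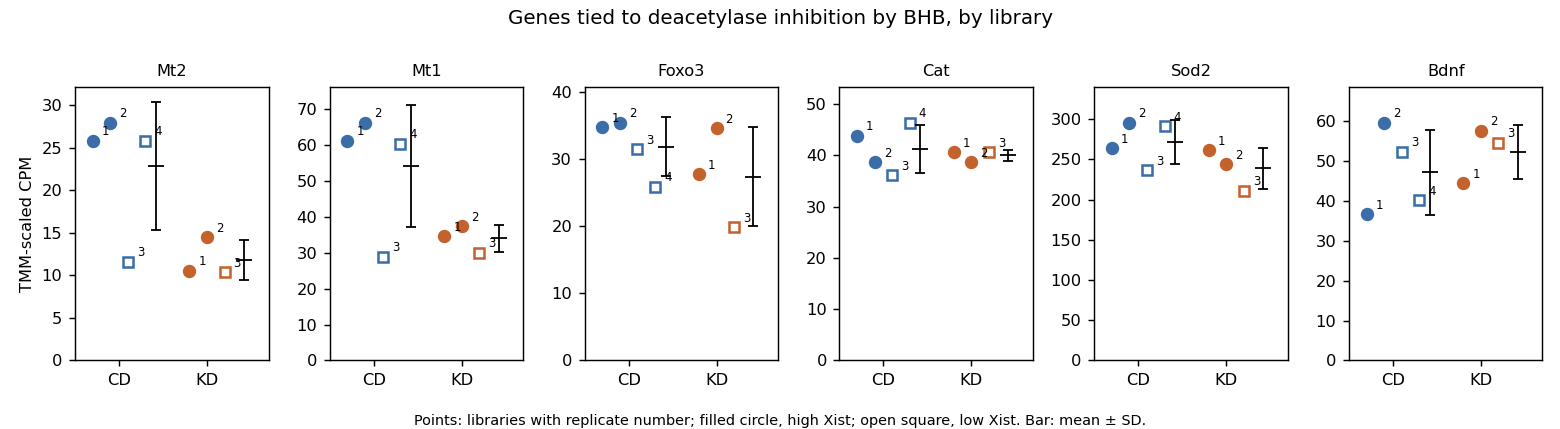
TMM-scaled CPM (y axis, starting at 0) of the 6 genes tied to deacetylase inhibition by BHB in the 4 CD and 3 KD libraries, with symbols and bars as in the plot of the histone deacetylases. Mt2 and Mt1 are low in all KD libraries and in CD replicate 3, while the diets overlap in each of the 6 genes.

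The other genes of that list overlapped widely. Foxo3 had 34.7, 35.4, 31.4 and 25.9 CPM on CD and 27.7, 34.5 and 19.9 CPM on KD, a log2 fold change of -0.22 (SE 0.19). It ranged from -0.42 without KD replicate 2 to -0.03 without KD replicate 3. With the replicate block, and CD replicate 4 out of the fit, it was -0.34 with a raw p of 0.0419 and an adjusted p of 0.835 in edgeR, and without CD replicate 4 alone it was -0.30. Sod2, the mitochondrial superoxide dismutase, differed by -0.19 (SE 0.11) and catalase (Cat) by -0.05 (SE 0.10). Bdnf, the neurotrophin, had 36.6, 59.7, 52.4 and 40.2 CPM on CD and 44.5, 57.7 and 54.6 CPM on KD, with a log2 fold change of 0.15 (SE 0.18).

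Synaptic and activity genes studied as HDAC2 targets were higher on KD in 15 of 18 cases, with a median log2 fold change of 0.16 and 0 at a raw p under 0.05, where 49% of all genes were above 0. Egr1, an activity-induced transcription factor, had 85.6, 115, 73.2 and 41.5 CPM on CD and 97.8, 126 and 48.6 CPM on KD. Its Xist-high libraries were high and its Xist-low libraries low on both diets, with a log2 fold change of 0.20 (SE 0.38). These genes share activity-driven control and are not independent of each other.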

How the data were processed

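RNA-seq of cortex from 7 mice was used. The authors ran FASTQC, aligned the reads to mm10 with STAR and took gene counts from STAR's built-in version of the HTSeq method. Versions, annotation and strand setting are not given in the sources used here. The deposited values are raw counts per gene symbol, from 22272883 to 36614954 per library, and the members had 178 to 7525 counts. Low counts are less precise.

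Here counts were tested with edgeR 4.0.16 in R 4.3.3 (filterByExpr, TMM, glmQLFit with robust=TRUE, glmQLFTest), KD against CD with no covariate. Benjamini-Hochberg adjustment covered all 15881 tested genes. Standard errors and 95% intervals derive from the F statistic. The procedure was tested on simulated data. Raw p-values set the diet difference against the variation between single mice, which edgeR moderates with information from all tested genes. limma 3.58.1 and DESeq2 1.42.0 served as alternatives, with other scalings, filters and tests, a replicate block, Xist as a covariate and each library left out.

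Positions, exon lengths and transcript sequences came from GENCODE M21, which matched all 10 members on the same build. Shared sequence was searched in annotated transcripts only, not in the whole genome. Of each member, 1 transcript was searched for, the one with the longest coding sequence. Same-numbered libraries deviated from their diet means with correlations of 0.31, 0.24 and 0.13 (log2 of CPM plus 0.5) or 0.25, 0.19 and 0.098 (edgeR's log2 CPM). Nothing in the labels says that the numbers pair the mice, and blocked values are given where they change a call. The blocked fit used replicates 1 to 3 of both diets, so it lacks CD replicate 4.

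The members and lists were chosen with earlier results of these data known. All members are named. Of each list, the first 2 genes written and up to 3 more in each direction with a raw p under 0.05 are named, except that some genes of the lists are not reported here. Mta3, Rcor3 and Ddx3y, and in the sensitivity part Gatad2a, Fos and Sik1, were chosen after their values were seen. Marker lists for choroid plexus, meninges, microglia, striatum, red blood cells and neurons were computed too. In summed CPM the excitatory neuron markers ran from 796 to 1111 on CD and from 908 to 1106 on KD, inhibitory ones from 693 to 898 and 589 to 755, microglia from 320 to 540 and 452 to 623, striatum from 66.8 to 77.3 and 61.3 to 86.6, meninges from 41.2 to 236 and 35.1 to 113, choroid plexus from 8.75 to 451 and 23.2 to 48.1, and red blood cells from 6.29 to 10.1 and 6.15 to 8.89.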

Additional observations from a re-analysis of the deposited data

Results flagged for a closer look

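For 27 values, the CD libraries were examined for a single library standing far from the rest. The distance from an extreme library to the closest other, divided by the spread of the group, was compared with Dixon's 95% limit for 4 samples. The limit was exceeded by 4 values, while 1.35 would exceed it by chance, and the values come from the same libraries. Mt2 (0.910) and Mt1 (0.887) were set apart by CD replicate 3, with 11.6 and 29.0 CPM, below the other CD libraries. The summed CPM of the oligodendrocyte markers (0.866) set the same library apart, at 1113 CPM. The summed CPM of the olfactory bulb markers (0.852) set CD replicate 4 apart, at 73.1 CPM. None of the 10 histone deacetylases and none of their class totals exceeded the limit.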

How the results depend on the processing

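With 7 libraries, low counts for Hdac1 and Hdac7, and the Xist-high and Xist-low libraries spread over both diets, changes of the size of the intervals given cannot be told from none. Over other scalings, filters, tests and covariates with all libraries kept, 107 of 110 log2 fold changes of the histone deacetylases kept their direction and their side of a raw p of 0.01, as did 60 of 70 with 1 library left out and 9 of 10 with the replicate block, a fit from which CD replicate 4 drops out. An adjusted p under 0.05 was reached by 0 of the 10 in every alternative. The causes of the changes below were not tested.

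The number of histone deacetylases with a raw p under 0.05 was 2 with the replicate block on replicates 1 to 3, where 5.89% of all genes were called. These were Hdac1 at a log2 fold change of 0.52 and Hdac9 at 0.33, against 0.52 and 0.30 with CD replicate 4 left out and no block. The number was 1 among the Xist-high libraries (Hdac9, also the 1 at a raw p of 0.01, which 2.67% of all genes reached). It was also 1 with CD replicate 4 and KD replicate 3 both left out (Hdac1). With 1 library left out it ranged from 0 to 1, and without CD replicate 4, where it was 1, 2.73% of all genes were called. With the block Hdac8 was 0.026, Egr1 -0.086 and Mef2c -0.15, all already turned by leaving out CD replicate 4 alone (0.026, -0.0073 and -0.12), and the Xist covariate turned Mef2c to -0.042. Near-zero values crossed 0 elsewhere. Hdac9 was -0.0032 with every gene of at least 1 count, -0.014 with scaling by library size alone and -9.59e-05 with upper-quartile scaling, and Mef2a was -4.37e-04 and -0.0011 under the first and second of these. The Xist-high libraries alone gave -0.12 for Hdac11, -0.028 for Chd4, 0.069 for Crebbp and -0.050 for Mef2a. Without CD replicate 4 and KD replicate 3 together the values were -0.073 for Hdac11, 0.038 for Hdac5, -0.0012 for Hdac6, 0.016 for Hdac8, -0.031 for Chd4, 0.024 for Crebbp, -0.026 for Mef2a and -0.0071 for Sin3b. These last 2 splits were chosen after the data were seen.

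With each library left out in turn, the log2 fold changes that crossed 0 ranged from -0.16 to 0.30 for Hdac9, from -0.13 to 0.099 for Hdac11, from -0.11 to 0.076 for Hdac4 and from -0.076 to 0.026 for Hdac8. Among the partners they ranged from -0.14 to 0.019 for Brd2, from -0.0066 to 0.11 for Chd4, from -0.11 to 0.50 for Egr1, from -0.057 to 0.091 for Ep300, from -0.031 to 0.059 for Hsp90aa1, from -0.035 to 0.027 for Kdm1a, from -0.045 to 0.041 for Mef2a, from -0.14 to 0.23 for Mef2c and from -0.037 to 0.22 for Sin3b. Hdac1 (0.25 to 0.52) and Hdac7 (0.19 to 0.35) stayed above 0.

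Over all genes, the number with a raw p of at most 0.01 was 51, but 120 in DESeq2, 91 in edgeR's exact test, 103 in the likelihood-ratio test, 182 with the replicate block, 212 with the Xist covariate and 420 among Xist-high libraries, and with 1 library left out it lay between 19 (CD replicate 1 absent) and 211 (CD replicate 3 absent). In the list tied to BHB the number rose from 0 to 1 (Mt2) in DESeq2, the exact test, the likelihood-ratio test, the replicate block and the Xist covariate, to 2 among Xist-high libraries, and ranged from 0 to 2 with 1 library left out, with 2 without CD replicate 3. In NuRD it was 1 with the Xist covariate (Gatad2a, log2 fold change -0.30, raw p 0.00787, in edgeR). Among class IIa partners and among synaptic genes it ranged from 0 to 1, with Sik1 (0.57) and Fos (1.4) called without CD replicate 2. Per kilobase of the longest coding transcript, in place of all exons, the levels were 30.9 for Hdac2, 13.1 for Hdac5, 2.24 for Hdac7 and 8.62 for Hdac9, and with shared sequence left out of the length 9.07 for Hdac1 and 88.2 for Hdac11.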
